A study of Mus musculus with 6 samples.

Results

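The mitotic and meiotic G2/M machinery described here comprised 10 genes: Cdk1, the B-type cyclin genes Ccnb1 and Ccnb2, the anaphase activator gene Cdc20, the polo kinase gene Plk1, the Aurora kinase genes Aurka, Aurkb and Aurkc, and the spindle checkpoint genes Bub1 and Bub1b. They were taken by symbol, through the GENCODE vM21 annotation of GRCm38, from the 49584 gene identifiers of the deposited count table, and all 10 were found and passed the filter on low counts. RNA came from leptotene and zygotene spermatocytes, the cells of early meiotic prophase, sorted by flow cytometry from mouse testes at postnatal day 12 and copied into Smart-seq2 libraries, which amplify full-length cDNA by PCR. The series had 3 libraries labelled Srp68 SKO and 3 labelled wild type, and the protein of Srp68 belongs to the signal recognition particle, which docks ribosomes on the endoplasmic reticulum while they make proteins for export or for membranes. What strain was used, which part of the gene was removed, what drove the knockout and whether replicates were separate animals is not stated in the labels, so p-values measure the spread between these libraries, which may be technical.

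Entry into division is driven by the kinase CDK1, which works only when bound to a cyclin and whose usual partners are cyclins B1 and B2. Polo-like kinase and Aurora A help to switch that complex on and build the spindle, Aurora B and its germline relative Aurora C correct faulty attachments at centromeres, and BUB1 and BUBR1 (the product of Bub1b) hold back CDC20 until all chromosomes are attached. In the testis these genes are used both by dividing spermatogonia and, later, by spermatocytes leaving prophase, whereas leptotene and zygotene cells are still pairing their chromosomes.

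Genes of this group are known for 2 short promoter sequences. These are the CCAAT box (CCAAT), bound by NF-Y, and the cell cycle homology region (TTTGAA), read by complexes with LIN54. Promoters are shown first for some members, and those of Ccnb1, Aurkc and Bub1b are not printed. The lines give the 110 bases before the RefSeq start site on the strand of the gene (GRCm38.p6, 5′ to 3′), with CCAAT and TTTGAA, on either strand, in capitals.

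Cdk1, chr10:69352913-69353022, minus strand: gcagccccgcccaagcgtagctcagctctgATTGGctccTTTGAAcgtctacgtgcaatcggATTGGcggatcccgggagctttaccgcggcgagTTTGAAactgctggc
Ccnb2, chr9:70421555-70421664, minus strand: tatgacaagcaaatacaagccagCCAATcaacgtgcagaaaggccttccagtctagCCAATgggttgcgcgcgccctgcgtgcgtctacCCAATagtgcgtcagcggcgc
Cdc20, chr4:118437344-118437453, minus strand: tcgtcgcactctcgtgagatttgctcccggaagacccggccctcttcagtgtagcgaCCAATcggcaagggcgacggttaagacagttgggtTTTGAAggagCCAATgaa
Plk1, chr7:122159325-122159434, plus strand: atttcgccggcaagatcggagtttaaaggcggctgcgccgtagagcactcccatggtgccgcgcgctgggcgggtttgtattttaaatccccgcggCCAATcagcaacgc
Aurka, chr2:172370571-172370680, minus strand: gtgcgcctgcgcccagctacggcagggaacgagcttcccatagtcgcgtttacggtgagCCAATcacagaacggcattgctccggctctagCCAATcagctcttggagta
Bub1, chr2:127831860-127831969, minus strand: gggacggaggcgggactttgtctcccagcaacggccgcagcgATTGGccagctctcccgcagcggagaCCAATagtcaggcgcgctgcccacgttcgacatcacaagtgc

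Of the 10 genes, 9 had a promoter sequence in the RefSeq table. In windows of 250 bases before to 50 bases after the start, all 9 held a CCAAT box on either strand, which 37.4% of all 32851 promoters in the table did, and 6 held at least 2, against 11.7% of all promoters. TTTGAA on either strand stood in 6 of the 9, against 17.9% of all promoters, and both motifs stood in the same 6 (Cdk1, Ccnb2, Cdc20, Plk1, Aurka and Bub1b), against 6.95%. No match of one motif overlaps a match of the other in the printed sequences. In Cdc20, the sequence printed above has TTTGAA between 2 CCAAT boxes, from base −18 to −13 before the start. In Plk1 and Aurka it lies past the start, at bases 31 to 36 and 33 to 38, as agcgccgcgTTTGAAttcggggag and aggagaaccTTTGAAttgtaacgg. The Ccnb1, Aurkc and Bub1 windows had CCAAT but no TTTGAA. Ccnb1, called lower below, thus lacked TTTGAA, while Bub1b, which did not pass there, held it. These matches describe letters only, not binding.

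The libraries held 11.9 to 15.4 M counts, wild type more (14.3 to 15.4 M) than SKO (11.9 to 12.7 M), and levels below are CPM, counts relative to the size of the library, scaled by TMM, a method that sets libraries on a common scale from their bulk of genes. A count of 3 was worth 0.174 to 0.289 CPM, a floor that covers counting error only. Srp68 itself was at 21.7, 29.3 and 22.6 CPM in wild type and 12.1, 6.52 and 6.93 CPM in SKO replicates 1 to 3 (log2 fold change −1.52, edgeR adjusted p = 0.00107). The 12 leptotene and zygotene markers, such as Sycp3 (5664 ± 698 CPM in wild type, SD, n = 3), summed to 18150 to 22630 CPM in wild type and 31580 to 41570 CPM in SKO libraries. Markers of somatic testis cells were low in most libraries: the 6 macrophage markers summed to 1.8 to 2.26 CPM in wild type and to 2.47, 1.86 and 38.4 CPM in SKO replicates 1 to 3, and the 10 Sertoli markers to 39.0 to 48.4 CPM in wild type and 30.7, 20.8 and 102.7 CPM in SKO. The 5 Leydig markers summed to 0.58 to 6.6 and 4.86 to 9.03 CPM, with Cyp17a1 and Cyp11a1 at 0 counts in all libraries. The 5 myoid markers summed to 1.04 to 2.36 and 4.61 to 13.3 CPM, and the 5 endothelial markers to 0.516 to 1.57 and 0.77 to 1.89 CPM. At an edgeR adjusted p under 0.05, the 1 tested myoid marker (log2 fold change 2.25) and the 1 tested macrophage marker (3.35, groups overlapping) were higher in SKO. Of all tested genes, 14.1% were. Of 5 tested Sertoli markers and 1 tested Leydig marker, 0 passed.

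Of the 10 genes, 7 were lower in SKO spermatocytes (Cdk1, Ccnb1, Ccnb2, Cdc20, Plk1, Aurka and Aurkb), 0 were higher and 3 did not pass (Aurkc, Bub1 and Bub1b). A gene was called when edgeR's quasi-likelihood test gave a Benjamini-Hochberg adjusted p under 0.05 over all 13474 tested genes, of which 14.4% were called lower and 14.1% higher. Scaling by library totals in place of TMM shifted the median log2 fold change of all genes to −0.29 and gave 23.5% called lower, with increases making up 24.2% of calls in place of 49.5%, and 8 of the 10 genes were then lower. Beside the 0 increases, 1 gene (Bub1) was higher at an unadjusted p under 0.05, and DESeq2 and limma-voom also called 0. The median log2 fold change of the 10 was −0.78, against −0.03 over all tested genes. In 3 of them (Cdc20, Plk1 and Aurka) the decrease reached 2-fold, as it did in 7.87% of all tested genes. Every SKO library lay below every wild type library in 8 of the 10, a pattern seen in 22.2% of tested genes. The 10 genes were chosen with earlier results of these data known, so these shares are descriptive only. In bulk libraries such as these, fewer cells with a transcript and less of it per cell cannot be told apart.

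**Figure D1:**
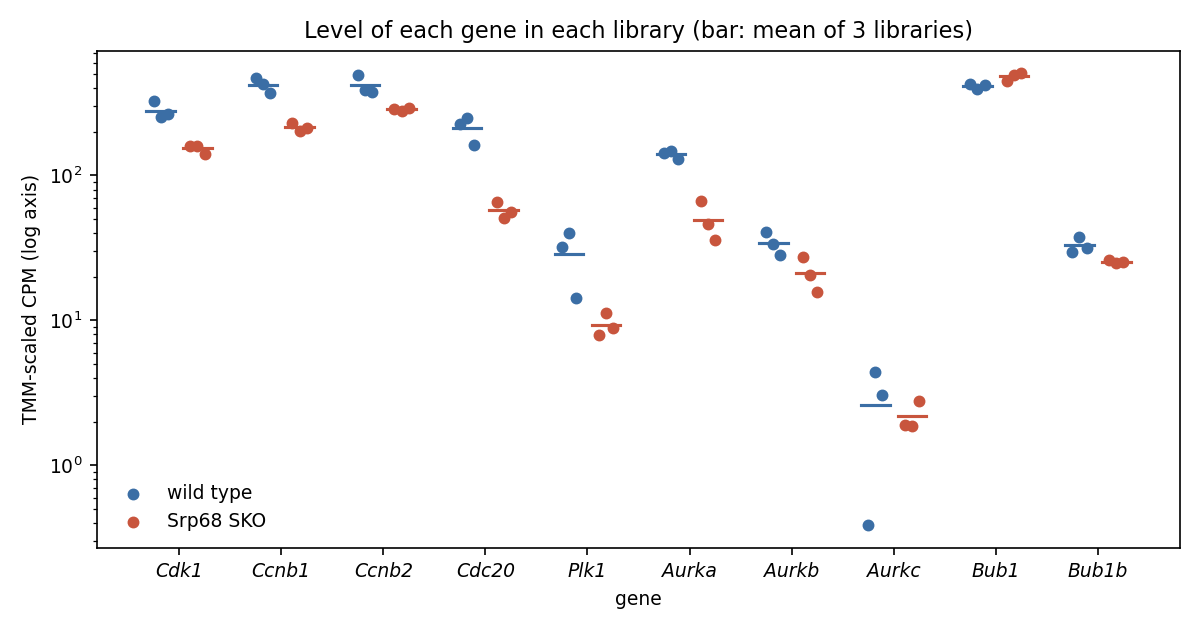
Level of each of the 10 genes in each library, as TMM-scaled CPM on a log axis, with wild type in blue, Srp68 SKO in red and a bar at the mean of 3 libraries. For Cdk1, Ccnb1, Ccnb2, Cdc20, Plk1, Aurka, Aurkb and Bub1b the SKO points all lie below the wild type points, for Bub1 they lie above, and for Aurkc they fall inside the wild type range of 0.387 to 4.4 CPM.

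The kinase subunit and both of its cyclins fell. Cdk1 (ENSMUSG00000019942; GRCm38 chromosome 10, 69335146 to 69352938, minus strand) was at 324, 253 and 265 CPM in the wild type libraries, given in the order of their replicate numbers as for all genes below, and at 160, 159 and 141 CPM in the SKO libraries. The lowest wild type library was thus well above the highest SKO library, and the knockout level averaged 54.7% of wild type (log2 fold change −0.87, SE 0.12; edgeR adjusted p = 0.000109). Ccnb1 (ENSMUSG00000041431; chromosome 13, 100778650 to 100786570, minus strand), the cyclin whose destruction lets cells leave M phase, was at 471, 425 and 372 CPM in wild type and 230, 203 and 212 CPM in SKO libraries. Its groups did not overlap, and its mean in SKO was 50.9% of wild type (log2 fold change −0.97, SE 0.11; edgeR adjusted p = 2.83e-05).

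Ccnb2 (ENSMUSG00000032218, chromosome 9, 70407692 to 70421547, minus strand) is the other B-type cyclin gene of the group. Its product resides mainly at the Golgi and in the cytoplasm. Ccnb2 fell by a smaller log2 fold change. It was at 492, 387 and 376 CPM in wild type and 288, 277 and 293 CPM in SKO libraries, 68.4% of wild type in the mean (log2 fold change −0.55, SE 0.11; edgeR adjusted p = 0.00256). Its SKO libraries were close together (SD 8.42 CPM, n = 3) and all below the lowest wild type library. Ccnb1 and Ccnb2 each have a pseudogene named after them in the annotation, and these held few reads. Ccnb1-ps had 2 to 20 counts a library and Ccnb2-ps 0 to 33. Ccnb1 had 2187 or more and Ccnb2 2976 or more. Copies annotated under other names were not searched for.

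The ratio of the cyclins to one another, which does not depend on how libraries are scaled, was lower in all SKO libraries than in any wild type library. Ccnb1 had 0.957, 1.1 and 0.989 counts for every Ccnb2 count in wild type libraries and 0.799, 0.735 and 0.723 in SKO. On the log2 scale, with 0.5 counts added to each gene, the ratio was 0.02 ± 0.10 in wild type and −0.41 ± 0.08 in SKO (SD, n = 3 each), a difference of −0.43. The groups did not overlap, and a two-sided exact permutation test gave p = 0.1, which is the lower limit for 3 libraries a group (0.133 after adjustment over the 4 ratios computed).

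Cdc20 showed the largest decrease of the 10 genes by log2 fold change, with TMM, with library totals and with the GC content and length correction alike. With TMM its approximate 95% interval (−2.20 to −1.57) overlapped those of Plk1 (−2.27 to −0.98) and Aurka (−1.87 to −1.14), so their order is not settled. Cdc20 (ENSMUSG00000006398; chromosome 4, 118432901 to 118437352, minus strand) encodes the protein that switches on the anaphase-promoting complex, the ubiquitin ligase that destroys cyclin B and securin. It was at 227, 249 and 163 CPM in wild type and 65.7, 51.1 and 55.7 CPM in SKO libraries. Even the lowest wild type library stood far above the SKO libraries, which averaged 27.0% of wild type (log2 fold change −1.89, SE 0.16; edgeR adjusted p = 3.06e-06). Only 2.87% of tested genes had a lower log2 fold change, and 2.84% of its exon length overlaps Elovl1 on the opposite strand.

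Plk1 (ENSMUSG00000030867; chromosome 7, 122159439 to 122169873, plus strand), the polo kinase, was lower and more variable. It was at 32.0, 40.1 and 14.3 CPM in wild type and 7.9, 11.3 and 8.85 CPM in SKO libraries. Wild type replicate 3 was near the SKO values, though still above all of them, with SKO libraries averaging 32.4% of wild type (log2 fold change −1.63 with SE 0.33; edgeR adjusted p = 0.00207). Of its exon length, 7.09% overlaps Gm44985 on the opposite strand. When trends with GC content and transcript length were removed library by library, its log2 fold change was −1.02 (edgeR adjusted p = 0.0254).

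The 3 Aurora kinase genes differed in level and in how far they moved. Aurka (ENSMUSG00000027496; chromosome 2, 172356190 to 172370535, minus strand), whose kinase acts at centrosomes and spindle poles, was at 142, 148 and 130 CPM in wild type and 66.2, 46.4 and 35.6 CPM in SKO libraries. These groups were far apart, and SKO libraries averaged 35.2% of wild type (log2 fold change −1.50, SE 0.19; edgeR adjusted p = 5.05e-05).

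Aurkb (ENSMUSG00000020897; chromosome 11, 69045647 to 69051664, plus strand), the catalytic subunit of the chromosomal passenger complex, was at 40.7, 33.7 and 28.3 CPM in wild type and 27.3, 20.6 and 15.7 CPM in SKO libraries. Wild type replicate 3 and SKO replicate 1 nearly touched, and SKO libraries averaged 61.9% of wild type (log2 fold change −0.69, SE 0.23; edgeR adjusted p = 0.037). This call was the least firm of the 7. It was lost with the GC content and length correction (log2 fold change −0.29; edgeR adjusted p = 0.348) and without wild type replicate 1 (−0.55; 0.152) or 2 (−0.70; 0.0783) or SKO replicate 2 (−0.67; 0.114) or 3 (−0.52; 0.153).

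Aurkc (ENSMUSG00000070837; chromosome 7, 6995300 to 7003091, plus strand), the Aurora kinase best known from meiotic divisions, had the fewest counts of the 10 genes. It had 6, 76 and 47 counts in wild type (0.387, 4.4 and 3.08 CPM) and 23, 20 and 29 counts in SKO libraries (1.89, 1.86 and 2.79 CPM). Its groups overlapped, with wild type replicate 1 the lowest and replicate 2 the highest of all 6 libraries. Its log2 fold change of −0.27 (SE 0.72, edgeR adjusted p = 0.823) had an approximate 95% interval from −1.68 to 1.15. No direction can be given with this spread between the wild type libraries.

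The ratio of Aurka to Aurkb was also lower in each SKO library than in each wild type library. Aurka had 3.5, 4.4 and 4.58 counts for every Aurkb count in wild type and 2.42, 2.25 and 2.27 in SKO libraries. The log2 ratio was 2.05 ± 0.21 in wild type and 1.21 ± 0.06 in SKO (SD, n = 3 each; exact permutation p = 0.1, adjusted 0.133), with no overlap. The log2 ratio of Aurkc to Aurkb overlapped between genotypes (−4.24 ± 2.05 and −3.24 ± 0.70, SD, n = 3; exact permutation p = 0.7), and its difference of 1.0 turned to −0.18 without wild type replicate 1.

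**Figure D2:**
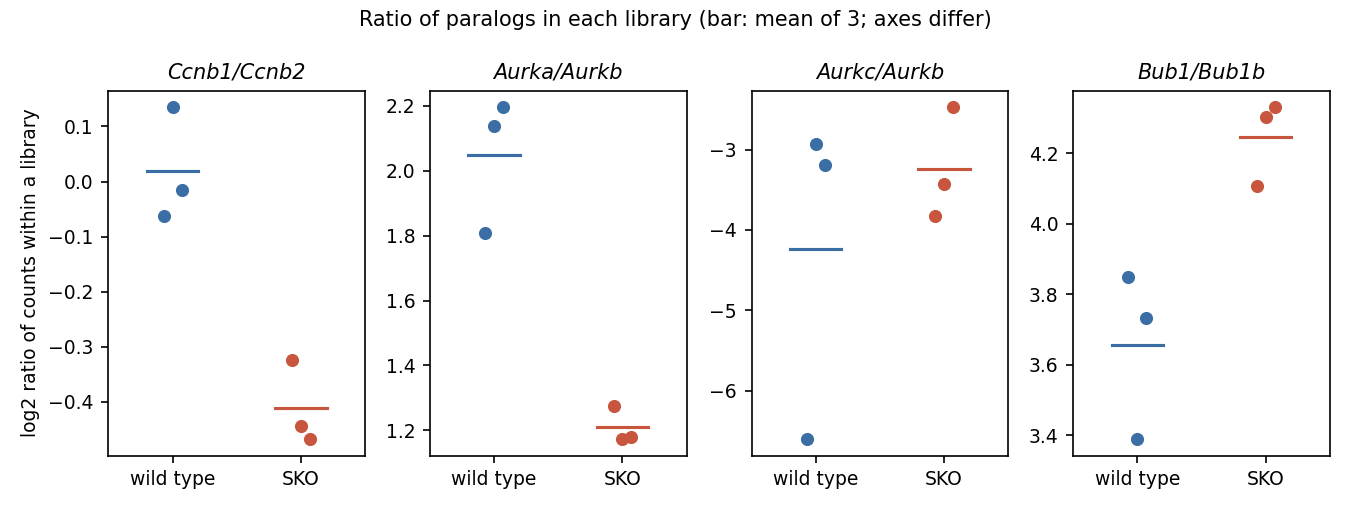
Log2 ratio of counts between paralogs within each library, with 1 panel per pair, points for libraries and a bar at the mean of 3; the vertical axes differ between panels. Ccnb1/Ccnb2 and Aurka/Aurkb are lower in all SKO libraries than in all wild type libraries, Bub1/Bub1b is higher on this uncorrected scale but overlaps after the GC content and length correction, and Aurkc/Aurkb overlaps.

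Neither of the checkpoint kinase genes passed the test. Bub1 (ENSMUSG00000027379; chromosome 2, 127801122 to 127831865, minus strand), which encodes the kinase that marks centromeres for checkpoint and shugoshin binding, was at 430.0, 396 and 418 CPM in wild type and 450, 495 and 506 CPM in SKO libraries. All SKO libraries stood above all wild type libraries on this scale, but the difference did not pass (log2 fold change 0.22, SE 0.10; edgeR adjusted p = 0.0993). It was −0.041 with library totals as the scale and −0.0095 with the GC content and length correction, so no direction can be given.

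Bub1b (ENSMUSG00000040084; chromosome 2, 118598211 to 118641591, plus strand), the gene for the BUBR1 inhibitor of CDC20, was at 29.8, 37.8 and 31.4 CPM in wild type and 26.1, 25.04 and 25.12 CPM in SKO libraries. The SKO libraries lay below the wild type libraries, yet the log2 fold change of −0.38 (SE 0.18) did not pass (edgeR adjusted p = 0.142). With library totals it was −0.64 and passed (edgeR adjusted p = 0.0215). Bub1 had 14.4, 10.5 and 13.3 counts for every Bub1b count in wild type and 17.2, 19.8 and 20.1 in SKO libraries, a log2 ratio of 3.66 ± 0.24 and 4.25 ± 0.12 (SD, n = 3 each; exact permutation p = 0.1, adjusted 0.133). With each library's trends with GC content and length removed, the difference of 0.59 shrank to 0.093. The corrected ratios were 3.91 ± 0.16 and 4.0 ± 0.042 (SD, n = 3 each; exact permutation p = 0.4). These groups overlapped, so no difference in this ratio can be given.

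**Figure D3:**
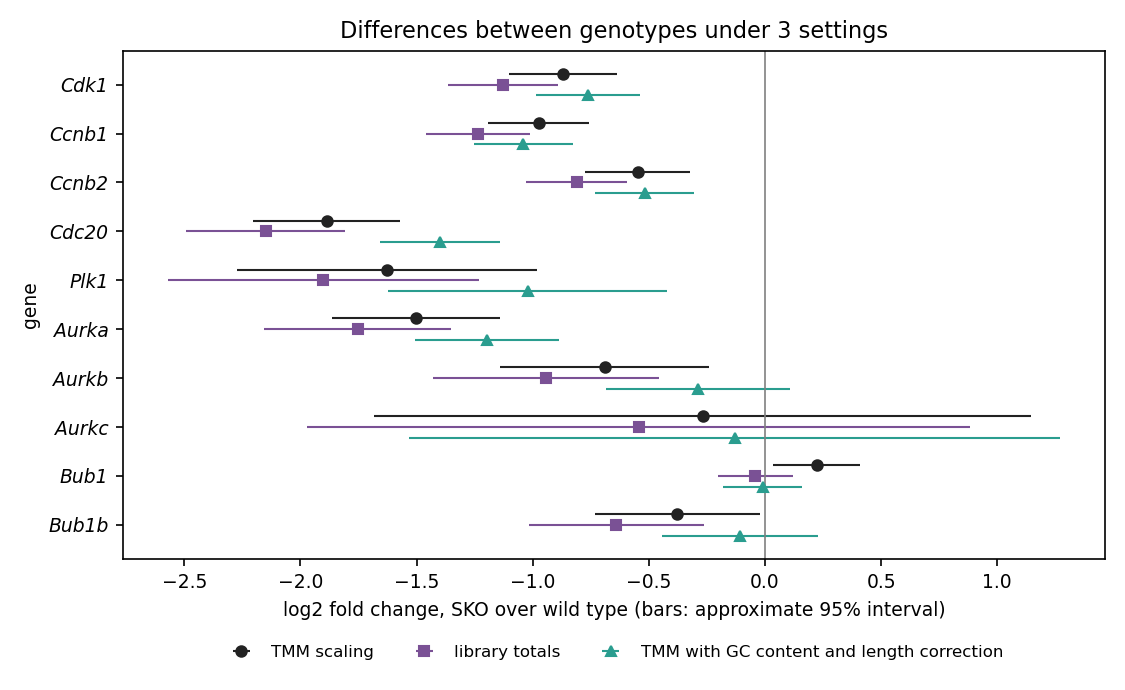
Log2 fold change (SKO over wild type) of each gene with bars for an approximate 95% interval, for TMM scaling (black circles), library totals (purple squares) and TMM with a GC content and length correction (green triangles). Cdk1, Ccnb1, Ccnb2, Cdc20, Plk1 and Aurka lie below 0 in all 3 settings. The bars of Aurkb cross 0 after the correction, and Bub1 moves from 0.22 to −0.041 and −0.0095. Bars rest on the SE and a normal quantile. With TMM scaling those of Bub1 and Bub1b leave out 0, although neither gene passed the test.

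Scaled by exon length, the order of levels differed between the genotypes. In wild type, in CPM per kilobase, Ccnb2 was highest at 273.5 ± 41.9, followed by Cdc20 (114 ± 24.0), Ccnb1 (100.3 ± 11.8) and Bub1 (95.2 ± 3.96), and the ranges of Cdc20 and Ccnb1 and of Ccnb1 and Bub1 overlapped (SD, n = 3). Cdk1 (56.9 ± 7.68) and Aurka (55.4 ± 3.78) could not be ordered, nor could Plk1 (13.1 ± 6.0) and Aurkb (11.6 ± 2.12), with Bub1b at 7.72 ± 0.98 and Aurkc lowest at 1.72 ± 1.34. In SKO, Ccnb2 (187 ± 5.5 CPM per kilobase) was followed by Bub1 (111 ± 6.87), which stood clear of Ccnb1 (51.1 ± 3.25), and Cdc20 (30.8 ± 3.99) stood level with Cdk1 (31.1 ± 2.14). Plk1 (4.25 ± 0.79) was below Bub1b (5.95 ± 0.14) there, with no overlap. The length is that of all annotated exons of a gene, so these levels depend on which transcript the cells use.

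Among regulators of the CDK1 complex, genes were called in both directions. Of 19 tested genes of a list of activators, inhibitors and transcriptional regulators of CDK1 and cyclin B, 5 were higher (26.3%, against 14.1% of all tested genes), 2 lower (10.5%, against 14.4%) and 12 did not pass. Their median log2 fold change was 0.17. Arpp19, whose phosphorylated product inhibits the phosphatase that opposes CDK1, rose from 594 ± 37.1 to 1480 ± 127 CPM (SD, n = 3; edgeR adjusted p = 1.09e-06), whereas its close relative Ensa fell from 190 ± 26.2 to 114 ± 13.1 CPM (0.000708). How reads of Arpp19 that also map to other loci were counted is not known. Ccnb3, a meiotic B-type cyclin gene, rose with a log2 fold change of 1.21 (edgeR adjusted p = 1.5e-05). Cks1b, which encodes a small subunit that binds CDK complexes, rose from 351 ± 13.6 to 526 ± 1.92 CPM (edgeR adjusted p = 0.000314).

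Among the transcription factors of the list, Mybl1 (A-MYB, a regulator of meiotic genes; log2 fold change 0.47) and Lin54 (0.60) were higher and Foxm1, an activator of G2/M genes, lower (9.78 ± 1.69 to 5.12 ± 0.275 CPM; edgeR adjusted p = 0.0386). The inhibitory kinase gene Wee1 (38.7 to 44.1 CPM) and the activating phosphatase gene Cdc25c (16.5 to 13.7 CPM) did not pass. Ccna1 and Wee2 had too few counts to be tested. Of the 7 calls, 4 (Arpp19, Ccnb3, Cks1b and Ensa) held in all 16 alternative analyses, while Foxm1, Lin54 and Mybl1 lost theirs in 9, 8 and 6 of them, and correcting for GC content and length left Mybl1 at a log2 fold change of 0.0051.

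Kinetochore, checkpoint and chromosomal passenger genes were likewise called in both directions. Whether their shares differ from those over all genes was not tested. Of 25 tested, 6 were higher (24.0%, against 14.1% of all tested genes), 5 lower (20%, against 14.4%) and 14 did not pass. The median log2 fold change was 0.15. Bub3 and Mad1l1 fell among direct checkpoint partners of the genes above: Bub3, which carries BUB1 and BUBR1 to kinetochores, from 192 ± 21.3 to 99.7 ± 7.83 CPM (SD, n = 3; edgeR adjusted p = 7.05e-05), and Mad1l1, the kinetochore anchor of MAD2, from 9.82 ± 0.862 to 2.7 ± 0.859 CPM (0.00177). The microtubule-binding Nuf2 (log2 fold change −0.37), the ATPase gene Trip13 (−0.38) and the checkpoint kinase gene Ttk (−0.46) completed the decreases. Spc24 (0.79), Spc25 (0.70), Knl1 (0.70), Birc5 (0.46) and the Aurora A activator gene Tpx2 (0.76) were higher, as was Kntc1. Mad2l1 itself, at 413 ± 54.8 and 470 ± 47.9 CPM, did not pass (edgeR adjusted p = 0.261). The calls of Bub3, Mad1l1, Spc24, Spc25 and Tpx2 held in all 16 alternatives, and those of Ttk, Trip13 and Nuf2 were lost in 10, 8 and 5, those of Knl1 (0.26 with the GC content and length correction) and Birc5 (0.20 with library totals) in 1 each and that of Kntc1 in 2. With a library left out, 2 to 5 genes of the list were lower.

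Genes of the anaphase-promoting complex, the ubiquitin ligase that CDC20 activates, were also called in both directions. A difference between their shares and those over all genes was likewise not tested. Of 21 tested, 5 were lower (23.8%, against 14.4% of all tested genes), 4 higher (19%, against 14.1%) and 12 did not pass. The median log2 fold change was −0.30. Ube2s, the enzyme that extends ubiquitin chains for the complex, fell from 754 ± 18.7 to 124 ± 42.5 CPM (SD, n = 3; edgeR adjusted p = 9.11e-07). How reads of Ube2s that also map elsewhere were counted is likewise not known. The scaffold subunit genes Anapc5 (log2 fold change −1.15) and Cdc16 (−0.72), the RING subunit gene Anapc11 (−0.30, but 0.064 with the GC content and length correction) and Fzr1 (−0.96, but −0.26 with that correction), the other co-activator beside CDC20, fell. The small subunit genes Anapc13 (0.81), Anapc10 (0.78) and Anapc16 (0.62) and the inhibitor gene Fbxo5 (0.63) rose, and of the exon length of Anapc13, 10.1% overlaps another gene. Ube2c, which starts the chains, was at 269 ± 14.9 and 270 ± 21.97 CPM in wild type and SKO (edgeR adjusted p = 0.995), with 22.8% of its exon length shared with another gene. The calls of Ube2s, Anapc5, Cdc16, Anapc13, Anapc10 and Anapc16 held in all 16 alternatives, whereas Anapc11 lost its call in 8, Fzr1 in 5 and Fbxo5 in 6. With library totals 10 genes of the list were lower.

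**Figure D4:**
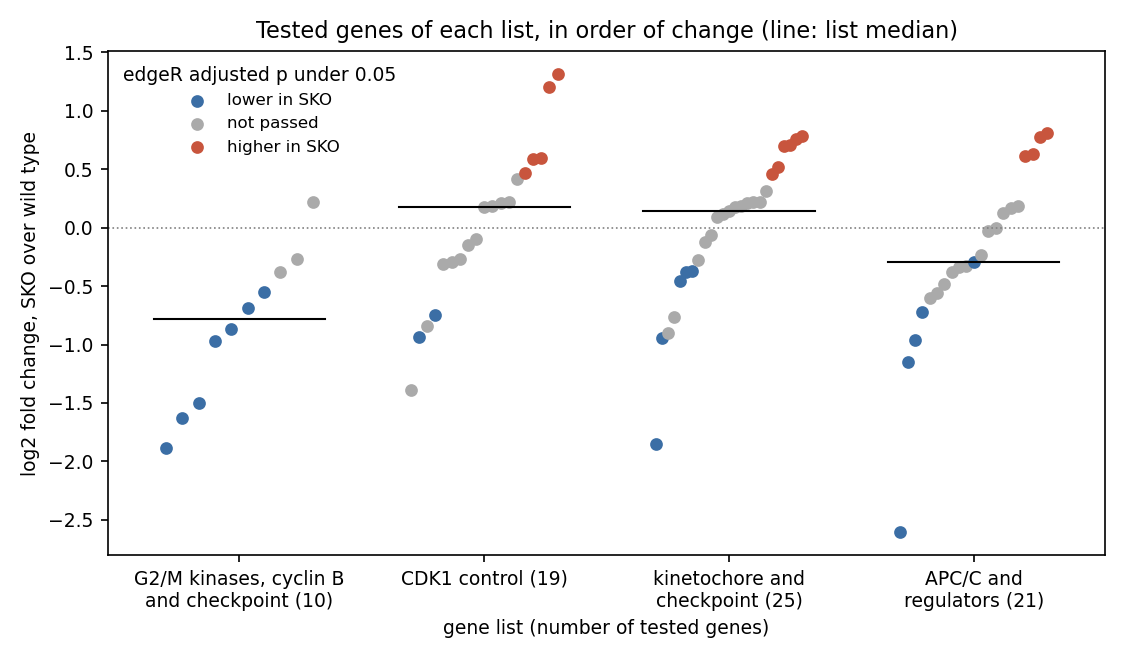
Log2 fold change of every tested gene of the 10-gene group and of 3 related lists, sorted within each list, with genes called lower in blue, higher in red and not passed in grey, and a line at each list's median. The 10 genes have a median of −0.78 with no gene called higher. Each of the other lists holds genes called in both directions, around medians of 0.17, 0.15 and −0.30. The group and the lists were chosen with earlier results of these data known.

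Markers of stages and of dividing cells moved as follows beside these results, and their part in them was not tested. Over all tested genes, 14.1% were higher and 14.4% lower. Of 12 leptotene and zygotene markers, 10 were higher (83.3%), 1 lower (8.33%) and 1 did not pass. Of 11 tested pachytene markers, 9 were lower (81.8%), 0 higher and 2 did not pass in edgeR. Increases were also 0 at an unadjusted p under 0.05, and 0 in DESeq2 and limma-voom. The 15 pachytene markers in the table summed to 801 to 916 CPM in wild type and 588 to 672 CPM in SKO libraries. Of 10 tested proliferation markers, 3 were higher (30%), 1 lower (10%) and 6 did not pass. The sum of the list was 1598 to 1686 CPM in wild type and 1981 to 2147 CPM in SKO libraries. The decatenase gene Top2a was at 510 ± 38.5 and 797 ± 40.2 CPM and the division marker gene Mki67, which did not pass, at 124 ± 17.1 and 137 ± 9.35 CPM (SD, n = 3). The replication helicase gene Mcm3 was the marker called lower, from 77.7 ± 11.1 to 43.6 ± 8.07 CPM. The median log2 fold change of the list was −0.022. The sum of 8 differentiating spermatogonia markers was 711 to 757 CPM in wild type and 692 to 775 CPM in SKO, of which Rhox13 and Prss50 made up most. Of these 8, 2 were lower (25%), 1 higher (12.5%) and 5 did not pass, with a median log2 fold change of −0.23. Lower were Prss50, from 281 ± 64.5 to 96.7 ± 17.6 CPM, and Sohlh2. Rhox13 rose from 283 ± 58.9 to 513 ± 28.5 CPM. The sum of 10 undifferentiated spermatogonia markers was 15.5 to 33.6 and 20.1 to 27.3 CPM. Of spermatid markers, Prm2 and Tnp2 had 0 counts in all 6 libraries. The sum of 8 was 18.7 to 30.4 CPM in wild type and 13.1 to 18.4 CPM in SKO. Of the 2 spermatid markers tested, 1 was lower and 1 higher (50% each).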

How the data were processed

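For the 6 Smart-seq2 libraries the authors deposited raw read counts by gene, as whole numbers without normalization. The submitters' processing notes name FastQC, Trim Galore 0.6.4, HISAT2 2.0.5 and the builds GRCm38 and mm10. The counting step (tool, strand, annotation) is not stated there or in the labels. Reads carry no molecular identifiers, and overlapping genes and pseudogene copies may share them. Columns named CKO were taken as the SKO libraries by replicate number. GENCODE vM21 matched 49325 of 49584 identifiers.

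Genes were kept by filterByExpr, scaled by TMM and tested with edgeR 4.0.16 (glmQLFit, glmQLFTest, genotype as the only term) in R 4.3.3, after a check on simulated data; p-values were adjusted over all tested genes. For ratios of paralogs an exact permutation test was used, two-sided. No pair of replicates agreed within sampling noise (chi-square 12.0 to 22.2 per degree of freedom). Named genes were Srp68, the 10 members, up to 5 called genes a direction from each related list, and listed genes not tested; Kntc1, Wee1, Cdc25c, Mad2l1, Ube2c and the markers with values were chosen after their values were seen. The members, lists and alternatives were chosen with earlier results of these data known. Alternatives were DESeq2 1.42.0, limma-voom (limma 3.58.1), robust fitting, other scalings, filters and thresholds, a replicate block, a GC content and length correction (loess, span 0.3), and each library left out.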

Additional observations from a re-analysis of the deposited data

How the results depend on the processing

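Of 159 refits of single genes of the group, 148 kept direction and side of the threshold, among them all 16 of Cdk1, Ccnb1, Ccnb2, Cdc20, Plk1 and Aurka. The exceptions were Aurkb (above), Bub1b with library totals (above), Bub1, at −0.041 with library totals and −0.0095 with the GC content and length correction, and Aurkc, at 0.23 with limma-voom, 0.16 with the replicate block and 0.33 without wild type replicate 2. Aurkc did not reach the filter of 5 CPM. Library totals moved the median log2 fold change of all genes from −0.03 to −0.29 and that of the 10 from −0.78 to −1.04. They gave 3168 genes lower and 1010 higher (24.2% of calls in place of 49.5%). With the GC content and length correction the median of the 10 was −0.64. That correction moved Cdc20 from −1.89 to −1.40, Aurka from −1.50 to −1.20 and Srp68 from −1.52 to −1.02. It moved Ccnb1 the other way, from −0.97 to −1.04. The 10 counted 7 lower in most settings, 6 or 7 with a library left out, and 3 with a 2-fold minimum, where all genes counted 1060 lower and 521 higher; at an adjusted p under 0.01 all genes counted 1142 and 1230. With a library left out all genes counted 1373 to 1851 lower and 1361 to 1916 higher.

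CDK1 control counted 2 lower and 5 higher as reported. Lower were 4 with library totals, 1 without the low-count filter, 1 with limma-voom, 1 with the replicate block, 1 with the GC content and length correction, 1 at 0.01 and 0 at 2-fold; higher were 3 with library totals, 3 with the correction, 3 at 0.01 and 2 at 2-fold. A library left out gave 1 to 2 lower (1 without wild type replicate 2 or 3 or SKO replicate 2 or 3) and 3 to 5 higher (3 without wild type replicate 1 or SKO replicate 2 or 3). The kinetochore list counted 3 lower with DESeq2 size factors, 2 with upper-quartile factors, 3 without the filter, 2 at 0.01 and 1 at 2-fold, where 0 were higher; a library left out gave 2 to 5 lower (2 without wild type replicate 1 or 2 or SKO replicate 2, 3 without SKO replicate 3) and 5 to 6 higher. The anaphase-promoting list counted 10 lower with library totals, 3 with the correction, 3 at 0.01 and 2 at 2-fold, where 0 were higher; a library left out gave 3 to 5 lower (3 without wild type replicate 2 or SKO replicate 3) and 3 to 4 higher. The causes were not tested.

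The log2 ratio differences with a library left out were −0.47 to −0.37 for Ccnb1/Ccnb2, −0.96 to −0.76 for Aurka/Aurkb, 0.46 to 0.69 for Bub1/Bub1b and −0.18 to 1.65 for Aurkc/Aurkb, which was −0.18 without wild type replicate 1. Chosen after seeing the data, a GC content and length correction of the ratios gave −0.53, −0.93, 0.093 and 0.72 in that order, so the Bub1/Bub1b difference fell from 0.59 to 0.093. Same-numbered libraries did not deviate together (correlations 0.02, −0.05 and 0.04), but this cannot show whether they were prepared as pairs. The replicate block changed no call among the 10.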
